A study of Mus musculus with 6 samples.

Results

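The mitosis genes are 40 genes whose products carry a cell from the end of G2 through chromosome segregation to cytokinesis. They are a list of gene symbols, under a rule that uses no measured value, and were matched to the NCBI Gene identifiers of the deposited counts. The list was chosen with earlier results of these data known. All 40 were found among the 27179 genes of the tables, and all 40 were among the 14069 genes that passed the filter on low counts. By role, 7 belong to the cyclin B-CDK1 entry switch and 6 are mitotic kinases or subunits of the chromosomal passenger complex. Another 5 act in the spindle checkpoint, 7 at the centromere and kinetochore, 4 in spindle motors and assembly, 4 in anaphase and sister separation, and 5 at the central spindle and in cytokinesis. The last 2, Top2a and Mki67, act on chromosome structure and on the chromosome surface.

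Entry into mitosis is set off when CDK1, bound to cyclin A2 or a B-type cyclin, is freed of its inhibitory phosphates by CDC25 phosphatases, with help from PLK1 and the Aurora kinases. Chromosomes then attach to the spindle through kinetochores, the spindle checkpoint holds back the anaphase-promoting complex until attachment is complete, and separase cuts cohesin once securin is destroyed. Most of these genes are transcribed late in the cell cycle under the MuvB core, which represses them as part of the DREAM complex in resting cells and activates them with B-MYB and FOXM1 in G2, through CHR and CCAAT elements near their start sites. Cryptochromes are clock proteins that repress transcription driven by CLOCK and BMAL1 from E-boxes. In bulk RNA, fewer cells in G2 and mitosis and less of these mRNAs per cell cannot be told apart.

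The 3 lines were mouse embryonic fibroblasts (MEFs), and all of them lacked Cry1, Cry2, Per1, Per2, Nr1d1 and Nr1d2. CPN-/- was the parental line, while CPN-/- CRY1 and CPN-/- CRY2 carried exogenous mouse CRY1 or CRY2 from a retroviral vector. Each CRY-expressing line came from a single colony, so that the CRY protein and the clone cannot be told apart. PolyA RNA of 2 libraries per line, from separate RNA preparations of cells taken before confluence, was sequenced, and separate cultures are not stated, so that p-values measure the spread between these preparations.

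The libraries held between 25957409 and 36106949 counts, with TMM factors between 0.991 and 1.01. Cry1 had 5846 to 5971 counts in the CPN-/- CRY1 libraries and 1303 to 3973 in the others, and Cry2 had 9468 to 9498 in CPN-/- CRY2 and 1594 to 4325 in the others, so that the knocked-out genes still had counts in every library. Fibroblast markers summed to 12684 to 20154 CPM, in which each library's counts are scaled to a common total, with 9 of 10 past the filter, leukocyte markers to 3.19 to 6.25 CPM with Cd3e at 0, endothelial markers to 0.440 to 1.04 CPM and epithelial markers to 0.138 to 1.78 CPM with Epcam at 0. Neural markers, of which Map2 and Mbp passed the filter, summed to 62.4 to 153 CPM, and their part in the results was not tested. The CPN-/- libraries differed from each other far more than the libraries of the other lines did, by a chi-square of 67.2 per degree of freedom, where CPN-/- CRY1 had 5.05 and CPN-/- CRY2 10.2.

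The mitosis genes were well expressed in all 3 lines. Their summed share of the counts was 0.727% and 0.699% in the CPN-/- libraries. It came to 0.690% and 0.704% with CRY1, and to 0.736% and 0.725% with CRY2. These shares overlapped between CPN-/- and CPN-/- CRY1. A single member had between 550 counts, for Pttg1, and 29042 counts, for Top2a, in a library. Per kilobase of its longest coding transcript, Top2a had the highest level, with a mean of 145 CPM per kilobase over the 6 libraries, followed by Ccna2 with 138.5 and Cdk1 with 110.3. At the low end stood Cenpf with 11.3 CPM per kilobase, Mad2l1 with 11.6 and Espl1 with 12.3. The counts do not show which transcript was used, so that this order depends on the transcript chosen, which has 7557 bases for Mad2l1. Mki67, Mad2l1, Ndc80, Cenpe, Cenpf and Birc5 share a stretch of at least 150 bases, at 95% identity or more, with another gene's transcript. Foxm1 and Top2a share exon bases with a gene on the same strand, and Kif20a, Prc1, Ube2c, Cdc25b, Cdc25c, Cdc20, Nek2 and Plk1 with a gene on the other strand, so that the counts of these members are uncertain where reads could be shared. The plot of each library against the CPN-/- mean shows all 40 members by role.

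**Figure D1:**
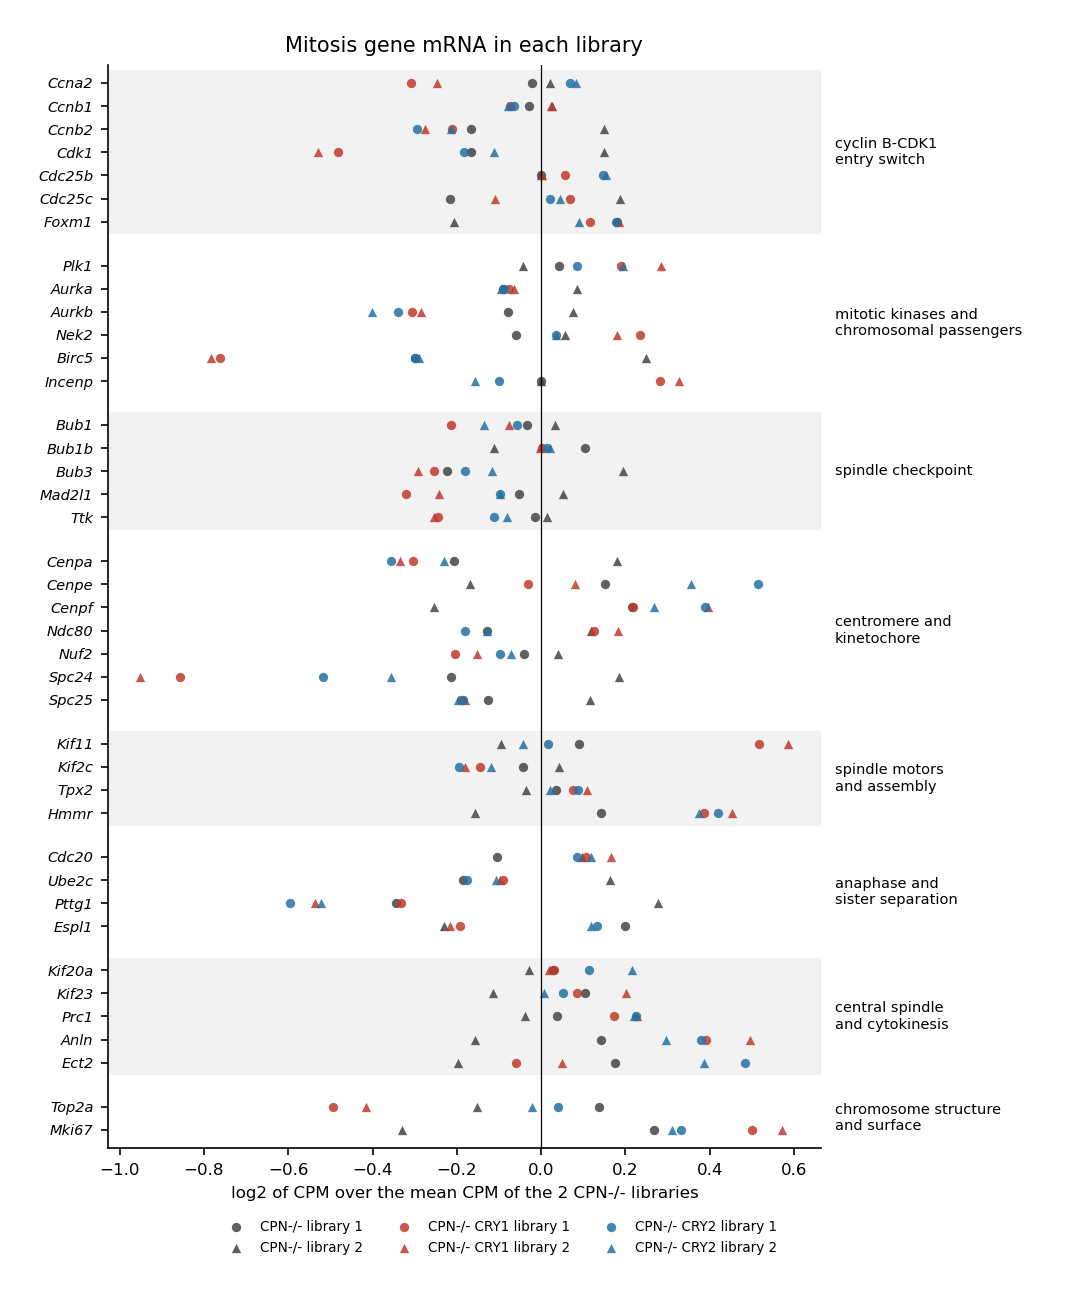
Level of each mitosis gene in each of the 6 libraries, as the log2 of its CPM over the mean CPM of both CPN-/- libraries (horizontal axis), grouped by role (right). Circles are the first and triangles the second library of a line. Spc24, Birc5, Cdk1 and Top2a lie lowest in CPN-/- CRY1, and Mki67, Kif11, Anln and Hmmr highest.

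The first comparison asked how the mitosis genes differed between CPN-/- CRY1 and the parental line. Of the 40 members 8 were called at an adjusted p under 0.05 in edgeR's quasi-likelihood test, adjusted by Benjamini-Hochberg over all tested genes, against 24.3% of all tested genes. They split evenly, with 4 higher (against 11.2% of all genes) and 4 lower (13.1%). Incenp, Kif11, Anln and Hmmr rose, and Cdk1, Birc5, Spc24 and Top2a fell. The median log2 fold change of the members was -0.02, beside -0.01 for all tested genes, and 17 of the 40 values were above 0. Both CPN-/- CRY1 libraries lay above both CPN-/- libraries for 13 members (32.9% of all genes did) and below both for 15 (34%), where 66.9% of all genes did not overlap. No member changed by 1 or more on the log2 scale, as 9.29% of all genes did. Without adjustment, 14 members had a p under 0.05, as did 5664 of all 14069 genes. The count of called members depended on single libraries, with 31 called without library 1 of CPN-/- and 21 without library 2, in fits that called 63.0% and 44.1% of all tested genes. Leaving out a library of CPN-/- CRY1 or CPN-/- CRY2 lowered the calls among the members, as it did among all tested genes. Without library 1 of CPN-/- CRY1 the median log2 fold change of the members was -0.034, and without library 2 it was -0.064.

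Among the entry genes, Cdk1, the kinase at the centre of the switch, was lower. Its level was 494 and 616 CPM in CPN-/-, 398 and 384 CPM in CPN-/- CRY1, and 489 and 514 CPM in CPN-/- CRY2. Both CPN-/- CRY1 libraries lay below the other 4. The log2 fold change against CPN-/- was -0.51 (SE 0.13, edgeR adjusted p = 0.031), a ratio of 0.704. Ccna2, which encodes cyclin A2, measured 421 and 435 CPM in CPN-/-, 346 and 361 CPM in CPN-/- CRY1, and 449 and 453 CPM in CPN-/- CRY2. Its change of -0.28 against CPN-/- did not pass (SE 0.09, edgeR adjusted p = 0.070), although its groups did not overlap. Ccna2 shares 510 exon bases with Exosc9 on the other strand, and the strand setting of the counting is not given in the sources used here.

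Ccnb1, the main mitotic cyclin, stood at 99.4 and 103 CPM in CPN-/-, 96.3 and 103 CPM in CPN-/- CRY1, and 96.9 and 96.1 CPM in CPN-/- CRY2. The CPN-/- and CPN-/- CRY1 libraries overlapped, and the 95% interval of the log2 fold change ran from -0.24 to 0.19. Its counts are uncertain where reads could be shared with 4 Ccnb1 pseudogenes of at least 95% identity. Foxm1, a transcription factor of G2 genes, measured 143 and 109 CPM in CPN-/-, 137 and 143 CPM in CPN-/- CRY1, and 143 and 134 CPM in CPN-/- CRY2. The CPN-/- libraries spanned both CPN-/- CRY2 libraries and 1 of CPN-/- CRY1, and the change was 0.15 (SE 0.14, edgeR adjusted p = 0.44). The other 3 genes of the switch, the cyclin gene Ccnb2 and the phosphatase genes Cdc25b and Cdc25c, were not called.

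Among the kinases and passenger subunits, Birc5 and Incenp went in opposite directions. Birc5 encodes survivin, which tethers the chromosomal passenger complex to the centromere, and measured 132 and 193 CPM in CPN-/-, 96.0 and 94.6 CPM in CPN-/- CRY1, and 132 and 133 CPM in CPN-/- CRY2. The CPN-/- CRY1 libraries were lowest, and library 1 of CPN-/- lay at the level of CPN-/- CRY2. Birc5 fell by 0.77 on the log2 scale (SE 0.17, edgeR adjusted p = 0.021). Incenp, the scaffold of the same complex, was nearly equal in CPN-/-, at 135.8 and 135.9 CPM, and measured 165 and 170.3 CPM in CPN-/- CRY1 and 127 and 122 CPM in CPN-/- CRY2. It rose by 0.30 (SE 0.09, edgeR adjusted p = 0.048). The 3 lines did not overlap, but the median of all genes on its chromosome, chromosome 19, was also 0.31, and with each chromosome's median removed its change was -0.01.

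Plk1, the polo kinase, measured 131 and 123 CPM in CPN-/-, 145 and 155 CPM in CPN-/- CRY1, and 135 and 145 CPM in CPN-/- CRY2. Both CRY-expressing lines lay above the parental one, by 0.24 in CPN-/- CRY1 (SE 0.10, edgeR adjusted p = 0.12). Aurkb, the kinase subunit of the passenger complex, measured 90.5 and 101 CPM in CPN-/-, 77.3 and 78.5 CPM in CPN-/- CRY1, and 75.6 and 72.4 CPM in CPN-/- CRY2. All 4 libraries of the CRY-expressing lines lay below CPN-/-, and the change of -0.30 in CPN-/- CRY1 did not pass (SE 0.10, edgeR adjusted p = 0.067). Aurka and Nek2, kinases of the centrosome, were not called.

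None of the 5 spindle checkpoint genes was called by edgeR, and 2, Mad2l1 and Ttk, had an unadjusted p under 0.05. DESeq2 called none of them either. All 5 log2 fold changes were below 0, from -0.28 to -0.00, and 4 genes lay wholly below CPN-/-, as did 34% of all genes. Of the 7 centromere and kinetochore genes, 1 was called. Spc24, a subunit of the NDC80 complex that grips spindle microtubules, had the largest change of all 40 members. It measured 45.7 and 60.3 CPM in CPN-/-, 29.2 and 27.4 CPM in CPN-/- CRY1, and 37.0 and 41.4 CPM in CPN-/- CRY2. The 3 lines did not overlap, and the log2 fold change in CPN-/- CRY1 was -0.90 (SE 0.15, edgeR adjusted p = 0.0079), a ratio of 0.535. The other 6 genes of this role ranged from -0.32 for Cenpa, the centromeric histone, to 0.31 for Cenpf, a large outer kinetochore protein.

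The spindle motor Kif11, which slides antiparallel microtubules apart, measured 195 and 171.5 CPM in CPN-/-, 262 and 275 CPM in CPN-/- CRY1, and 185 and 178 CPM in CPN-/- CRY2. Both CPN-/- CRY1 libraries lay above the other 4. Its log2 fold change was 0.55 (SE 0.10, edgeR adjusted p = 0.012), a ratio of 1.47. Kif11 also lies on chromosome 19, and with the chromosome's median removed its change was 0.24. Hmmr, a spindle assembly factor, measured 114 and 92.6 CPM in CPN-/-, 135 and 141 CPM in CPN-/- CRY1, and 138 and 134 CPM in CPN-/- CRY2. Both CRY-expressing lines lay above the parental libraries, and the rise in CPN-/- CRY1 was 0.42 (SE 0.12, edgeR adjusted p = 0.046). Kif2c and Tpx2 were not called.

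At the central spindle, 1 of 5 genes was called. Anln, the anillin gene of the contractile ring, measured 437 and 355 CPM in CPN-/-, 519.6 and 559 CPM in CPN-/- CRY1, and 515 and 487 CPM in CPN-/- CRY2. All 4 libraries of the CRY-expressing lines were above CPN-/-, and the log2 fold change in CPN-/- CRY1 was 0.44 (SE 0.13, edgeR adjusted p = 0.045). None of the 4 anaphase genes (Cdc20, Ube2c, Pttg1 and Espl1) was called by edgeR or DESeq2 or had an unadjusted p under 0.05 in edgeR, with changes from -0.43 to 0.14.

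Top2a, the topoisomerase that untangles sister chromatids, measured 913 and 748 CPM in CPN-/-, 590.2 and 622 CPM in CPN-/- CRY1, and 854 and 819 CPM in CPN-/- CRY2. The CPN-/- CRY1 libraries lay below the other 4, by -0.45 on the log2 scale against CPN-/- (SE 0.12, edgeR adjusted p = 0.040). Mki67, the proliferation marker that coats mitotic chromosomes, measured 605 and 400.2 CPM in CPN-/-, 711 and 747 CPM in CPN-/- CRY1, and 633 and 624 CPM in CPN-/- CRY2. All 4 libraries with exogenous CRY lay above the higher CPN-/- library. Its change of 0.54 in CPN-/- CRY1 did not pass (SE 0.19, edgeR adjusted p = 0.078), and it was 0.87 without library 1 of CPN-/- and 0.27 without library 2. DESeq2 called Mki67 as higher, where it called 27.1% of all tested genes.

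The precision of these values bounds what could be seen. For 28 of the 40 members (70.0%) the 95% interval of the log2 fold change lay within 1.5-fold in either direction. The same held for 40.7% of all tested genes.

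**Figure D2:**
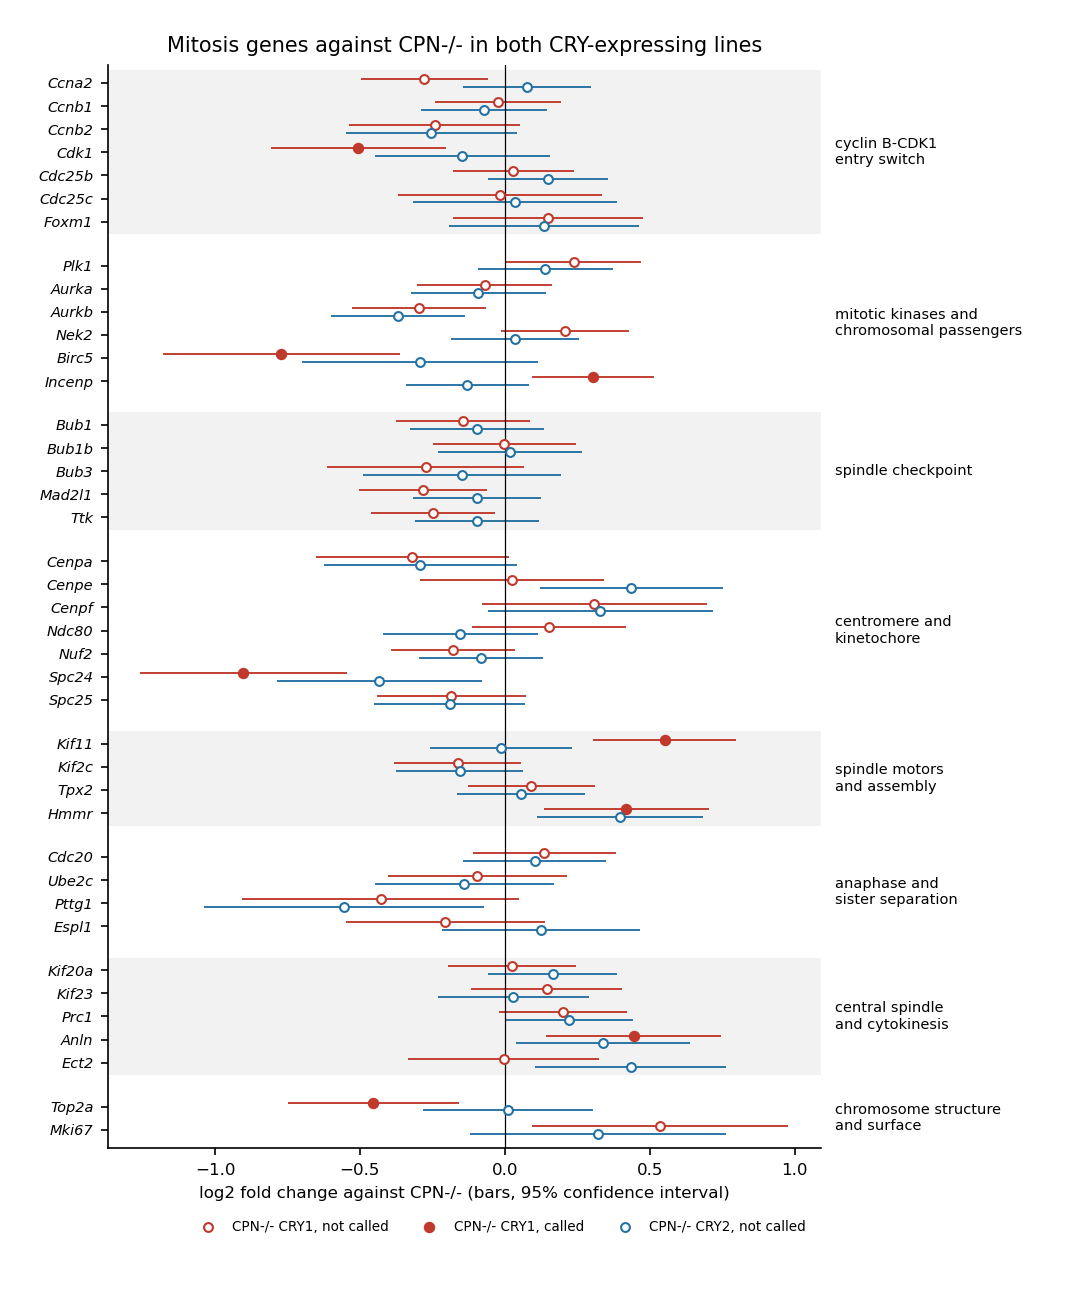
Log2 fold change of each mitosis gene against CPN-/- (points) with its 95% confidence interval (bars), in CPN-/- CRY1 (red) and CPN-/- CRY2 (blue), by role. Filled points were called at an adjusted p under 0.05, which holds for 8 members in CPN-/- CRY1 and 0 in CPN-/- CRY2. Both comparisons use the same 2 CPN-/- libraries.

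The promoters of the called members are shown because the elements that control the mitosis genes sit close to their start sites. RefSeq sequences (GRCm38.p6) from 250 bases before to 50 bases after an annotated start were held for 32 of the 40 members, 3 of them with a pair of starts, which made 35 promoters. Ccna2, Cdc25c, Aurkb, Incenp, Spc24, Kif20a, Tpx2 and Foxm1 were without an entry. The CHR element (TTTGAA or TTCAAA) was present in 26 of the 35 promoters (74.3%), against 17.9% of all 32851 promoters and 12.04% of those of tested genes. The CCAAT box (CCAAT or ATTGG) was present in 28 of the 35, against 37.4% of all and 38.1% of those of tested genes. The E-box (CACGTG) was present in 8.57%, those of Anln, Espl1 and Ttk, against 7.15% of all and 9.75% of those of tested genes. Each motif was read on both strands, and a match is a description and not a site. Of the 6 called members with a promoter 5 had a CHR, as did 18 of the 26 members not called.

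The promoters of these 6 members follow, 5′ to 3′ on the gene's own strand, with matches to the CHR, CCAAT box and E-box in capitals. Birc5 is on the forward strand at chr11:117848987-117849286, Kif11 on the forward strand at chr19:37376132-37376431, Cdk1 on the reverse strand at chr10:69352863-69353162, Top2a on the reverse strand at chr11:99024140-99024439, Anln on the reverse strand at chr9:22389157-22389456 and Hmmr on the reverse strand at chr11:40733388-40733687. Their log2 fold changes in CPN-/- CRY1 were -0.77, 0.55, -0.51, -0.45, 0.44 and 0.42.
Birc5: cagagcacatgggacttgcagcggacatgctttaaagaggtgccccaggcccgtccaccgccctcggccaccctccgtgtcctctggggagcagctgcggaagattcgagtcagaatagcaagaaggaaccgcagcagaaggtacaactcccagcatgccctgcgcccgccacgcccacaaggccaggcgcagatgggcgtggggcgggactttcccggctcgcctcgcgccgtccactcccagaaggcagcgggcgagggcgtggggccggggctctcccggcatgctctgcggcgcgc
Kif11: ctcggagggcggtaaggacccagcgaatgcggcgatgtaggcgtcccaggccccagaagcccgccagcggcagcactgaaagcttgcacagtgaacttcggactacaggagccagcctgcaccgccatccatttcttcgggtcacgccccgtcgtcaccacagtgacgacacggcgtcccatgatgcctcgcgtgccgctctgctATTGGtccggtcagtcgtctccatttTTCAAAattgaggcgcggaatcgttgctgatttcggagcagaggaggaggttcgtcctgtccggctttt
Cdk1: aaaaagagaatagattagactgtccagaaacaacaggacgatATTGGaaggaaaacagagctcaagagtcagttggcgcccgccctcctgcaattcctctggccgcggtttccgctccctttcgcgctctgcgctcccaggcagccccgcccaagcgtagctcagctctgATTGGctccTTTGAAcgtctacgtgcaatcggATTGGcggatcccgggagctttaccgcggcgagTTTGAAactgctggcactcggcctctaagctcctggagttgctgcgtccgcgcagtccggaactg
Top2a: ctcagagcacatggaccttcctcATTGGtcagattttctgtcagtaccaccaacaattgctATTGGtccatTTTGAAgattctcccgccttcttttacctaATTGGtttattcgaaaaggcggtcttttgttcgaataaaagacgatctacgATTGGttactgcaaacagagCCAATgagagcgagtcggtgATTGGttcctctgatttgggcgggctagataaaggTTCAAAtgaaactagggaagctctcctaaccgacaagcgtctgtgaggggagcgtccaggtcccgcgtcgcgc
Anln: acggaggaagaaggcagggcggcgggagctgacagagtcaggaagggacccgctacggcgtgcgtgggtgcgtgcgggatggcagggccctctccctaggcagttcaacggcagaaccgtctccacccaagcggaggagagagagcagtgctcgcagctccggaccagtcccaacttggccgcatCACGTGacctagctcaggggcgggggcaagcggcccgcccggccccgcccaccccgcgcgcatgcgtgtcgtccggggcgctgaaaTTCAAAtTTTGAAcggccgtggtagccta
Hmmr: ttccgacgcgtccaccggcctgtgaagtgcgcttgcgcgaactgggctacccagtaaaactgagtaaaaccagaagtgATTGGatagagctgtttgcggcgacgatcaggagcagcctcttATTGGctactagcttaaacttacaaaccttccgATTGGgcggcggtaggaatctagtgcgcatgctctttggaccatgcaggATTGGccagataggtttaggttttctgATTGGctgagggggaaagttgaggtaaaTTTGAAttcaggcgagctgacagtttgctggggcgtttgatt
Birc5 held none of these letters in its window. Cdk1 and Top2a, which fell, had a CHR at -15 and -23 from the start, counted with the first transcribed base as 1, and Kif11, which rose, had one at -19. Hmmr had its CHR at 9 and Anln a pair at 22 and 29. The E-box of Anln began at -65.

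The second comparison asked the same of CPN-/- CRY2, and uses the same CPN-/- libraries. Of the 40 members 0 were called by edgeR, where 6.66% of all tested genes were called (2.58% higher and 4.08% lower). At an unadjusted p under 0.05 there were 8 members, and 3436 of all 14069 genes. DESeq2 called 1 member, Aurkb, as lower, where it called 9.42% of all tested genes. The log2 fold changes ran from -0.56 to 0.44 with a median of -0.00, and 20 of 40 were above 0. Both libraries lay above CPN-/- for 11 members (28% of all genes) and below for 13 (27.2%), where 55.1% of all genes did not overlap. A change of 1 or more on the log2 scale was found for 0 members and 6.01% of all genes. For 29 members (72.5%) the 95% interval lay within 1.5-fold, beside 50.2% of all tested genes. There were 24 calls without library 1 of CPN-/- and 8 without library 2, where 56.4% and 22.1% of all genes were called.

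The lowest adjusted p belonged to Aurkb, with a log2 fold change of -0.37 (SE 0.10, edgeR adjusted p = 0.080). Positive values of a similar size belonged to Cenpe, a kinetochore motor, and Ect2, the exchange factor that starts the cytokinetic furrow. Cenpe measured 135 and 108 CPM in CPN-/-, 119 and 128 CPM in CPN-/- CRY1, and 173 and 155 CPM in CPN-/- CRY2, a change of 0.44 in the last (SE 0.13, edgeR adjusted p = 0.12). Ect2 measured 194.2 and 149.98 CPM in CPN-/-, 165 and 178 CPM in CPN-/- CRY1, and 241 and 225 CPM in CPN-/- CRY2, also a change of 0.44 (SE 0.14, edgeR adjusted p = 0.13). For both genes the CPN-/- CRY2 libraries were the highest of all 6. Without library 1 and without library 2 of CPN-/-, Ect2 was at 0.63 and 0.27 and Anln at 0.50 and 0.21. Hmmr and Anln, called in CPN-/- CRY1, had changes of 0.40 (SE 0.12, edgeR adjusted p = 0.11) and 0.34 (SE 0.13, edgeR adjusted p = 0.17). All 5 central spindle genes had positive values, from 0.03 to 0.44. The largest change of the 40 members was that of Pttg1, at -0.56 (SE 0.20, edgeR adjusted p = 0.16), with both libraries below CPN-/-. It was -0.84 without library 1 of CPN-/- and -0.21 without library 2. Over the members, the change in CPN-/- CRY2 had a Spearman correlation of 0.59 with transcript length, and over 12478 tested genes it was 0.45.

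The other genes called in CPN-/- CRY1, and Ccna2, had values closer to 0 in CPN-/- CRY2. The value of Cdk1 was -0.15, with a 95% interval from -0.45 to 0.15, and that of Birc5 -0.29, from -0.70 to 0.11. Spc24 had -0.43 (SE 0.15, edgeR adjusted p = 0.15), Incenp -0.13 and Ccna2 0.08. Without library 1 of CPN-/- Spc24 was at -0.62 and without library 2 at -0.21. Kif11 and Top2a were at -0.01 and 0.01, each with an interval within 1.5-fold. Whether the lines differed in these genes was read from their direct comparison.

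The third comparison set CPN-/- CRY1 directly against CPN-/- CRY2. Of the 40 members 4 were called, against 16.3% of all tested genes. Kif11 and Incenp were higher in CPN-/- CRY1 (7.72% of all genes were), and Ccna2 and Top2a were lower (8.57%). The log2 differences were 0.57 for Kif11 (SE 0.10, edgeR adjusted p = 0.014) and 0.43 for Incenp (SE 0.09, edgeR adjusted p = 0.020). Those of Top2a and Ccna2 were -0.46 (SE 0.12, edgeR adjusted p = 0.047) and -0.35 (SE 0.09, edgeR adjusted p = 0.044). Birc5, Spc24 and Cdk1 had differences of -0.48, -0.47 and -0.36 that did not pass, with edgeR adjusted p of 0.11, 0.081 and 0.11. DESeq2 called Kif11, Incenp, Ccna2 and Top2a as edgeR did, and also Ect2 as lower, where it called 18.1% of all tested genes. The median over the members was -0.01, beside -0.00 for all genes, and 10 members lay wholly above CPN-/- CRY2 (36.4% of all genes) and 15 wholly below (36.9%), where 73.3% of all genes did not overlap. Differences of 1 or more on the log2 scale were found for 0 members and 7.83% of all genes.

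The CPN-/- libraries enter this comparison through the shared estimate of the spread, the filter on low counts and the TMM scaling. Without library 1 of CPN-/- 16 members were called, without library 2 also 16, and 15 when only the 4 libraries of the CRY-expressing lines were fitted. The same fits called 48.4%, 47.7% and 49.7% of all tested genes. Leaving out any 1 library of these lines lowered the calls among the members, as it did among all tested genes. In the fit of 4 libraries Nek2, Incenp, Ndc80, Kif11 and Mki67 were higher in CPN-/- CRY1. Ccna2, Cdk1, Mad2l1, Birc5, Cenpe, Spc24, Kif20a, Top2a, Espl1 and Ect2 were lower.

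Of the 4 called members 3 lay on chromosomes whose genes differed together between these lines. The median difference of the 473 tested genes on chromosome 19 was 0.46, and Kif11 and Incenp are its members in the list. On chromosome 3, with 638 tested genes, the median was -0.40, beside -0.35 for Ccna2, -0.41 for Cenpe and -0.44 for Ect2. Espl1, which encodes separase, lies on chromosome 15, where 530 tested genes had a median of -0.43, and its own value was -0.33. Top2a lies on chromosome 11, with a median of -0.09 over 1106 genes. With each chromosome's median removed, a step added once the data had been seen, 0 members were called by edgeR and 3 had an unadjusted p under 0.05. This fit called 10.5% of all tested genes. Kif11 was then at 0.10, Incenp at -0.03, Ccna2 at 0.02 and Top2a at -0.37. In CPN-/- CRY1 against CPN-/- the same step left 4 of the 8 calls, Hmmr as higher and Cdk1, Birc5 and Spc24 as lower. There it called 20.03% of all tested genes.

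**Figure D3:**
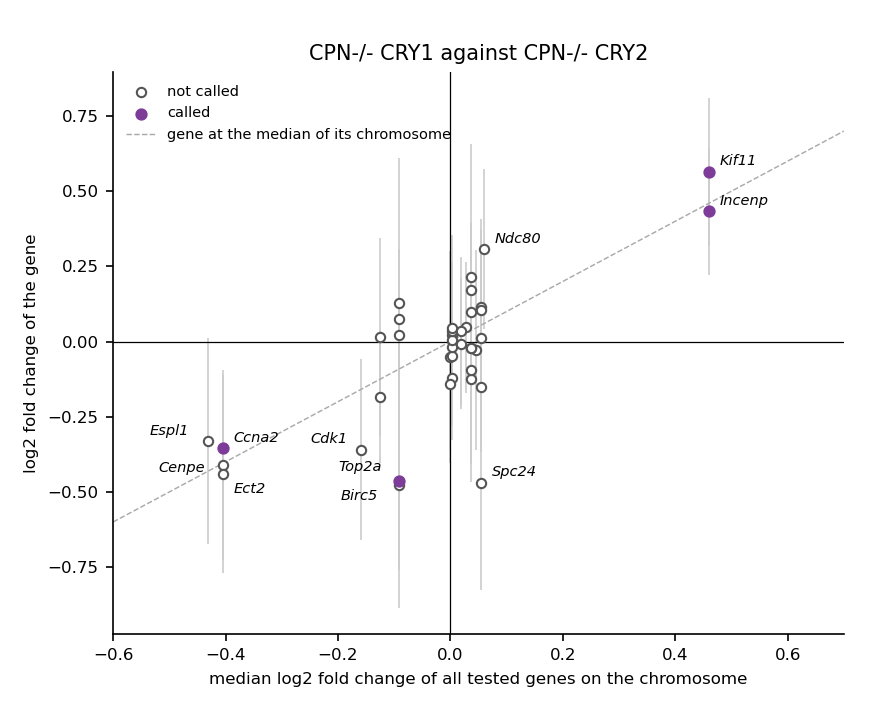
Difference of each mitosis gene between CPN-/- CRY1 and CPN-/- CRY2 (vertical axis, log2, with its 95% confidence interval) against the median difference of all tested genes on its chromosome (horizontal axis, log2). The dashed line marks equality. Kif11 and Incenp at 0.46 and Ccna2, Cenpe and Ect2 at -0.40 lie close to the line, while Top2a, Birc5 and Spc24 lie well below it.

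The difference between the CPN-/- libraries was ordered by transcript length. Across the 40 members, the log2 difference of library 2 from library 1 had a Spearman correlation of -0.73 with transcript length, and it was -0.70 across 12478 tested genes. Genes are not independent replicates, and no p is given. Pttg1, with 1674 bases, was 1.54 times as high in library 2 as in library 1, and Mki67, with 10061 bases, 0.661 times as high. The SD of this difference over the members was 0.30 in CPN-/-, while CPN-/- CRY1 had 0.080 and CPN-/- CRY2 0.071. Against CPN-/- the 20 longest members had a median log2 fold change of 0.02 with CRY1 and 0.04 with CRY2, and the 20 shortest of -0.13 and -0.09. The part of RNA quality in this order was not tested. With each library's trend with length removed, 17 members were called in CPN-/- CRY1, 7 in CPN-/- CRY2 and 10 between these lines, where 40.4%, 17.8% and 32.3% of all genes were called. Those in CPN-/- CRY2 (Cdc20, Cdc25b, Plk1, Prc1, Anln, Ect2 and Hmmr) were higher, as were 1519 of all 2511 genes called there.

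Since the 2 CPN-/- libraries differed, each CRY-expressing line was also set against either of them alone, in the fits given above that called 63.0% and 44.1% of all genes in CPN-/- CRY1. In CPN-/- CRY1, 7 members were called higher against both (Plk1, Incenp, Kif11, Prc1, Anln, Mki67 and Hmmr), and 8 lower against both (Ccna2, Cdk1, Aurkb, Mad2l1, Ttk, Birc5, Spc24 and Top2a). For 2 members, Cdc25c and Ect2, the calls were opposite, at -0.20 and 0.19 without library 1 and 0.21 and -0.17 without library 2. Another 14 were called only without library 1 and 4 only without library 2, and 5 in neither fit. Spc24 stayed between -1.09 and -0.68, Birc5 between -1.02 and -0.46 and Cdk1 between -0.65 and -0.33. Kif11 lay between 0.47 and 0.65. Foxm1 had 0.36 against library 2 and -0.02 against library 1. In CPN-/- CRY2, 5 members were higher against both (Cenpe, Prc1, Anln, Ect2 and Hmmr), 1 was lower against both (Aurkb), and 0 had opposite calls. These fits hold a single CPN-/- library, which is assumed to vary like the CRY-expressing lines. The share of all tested genes called in 1 direction in both fits was not computed. These counts can therefore not be set apart from those of all genes.

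**Figure D4:**
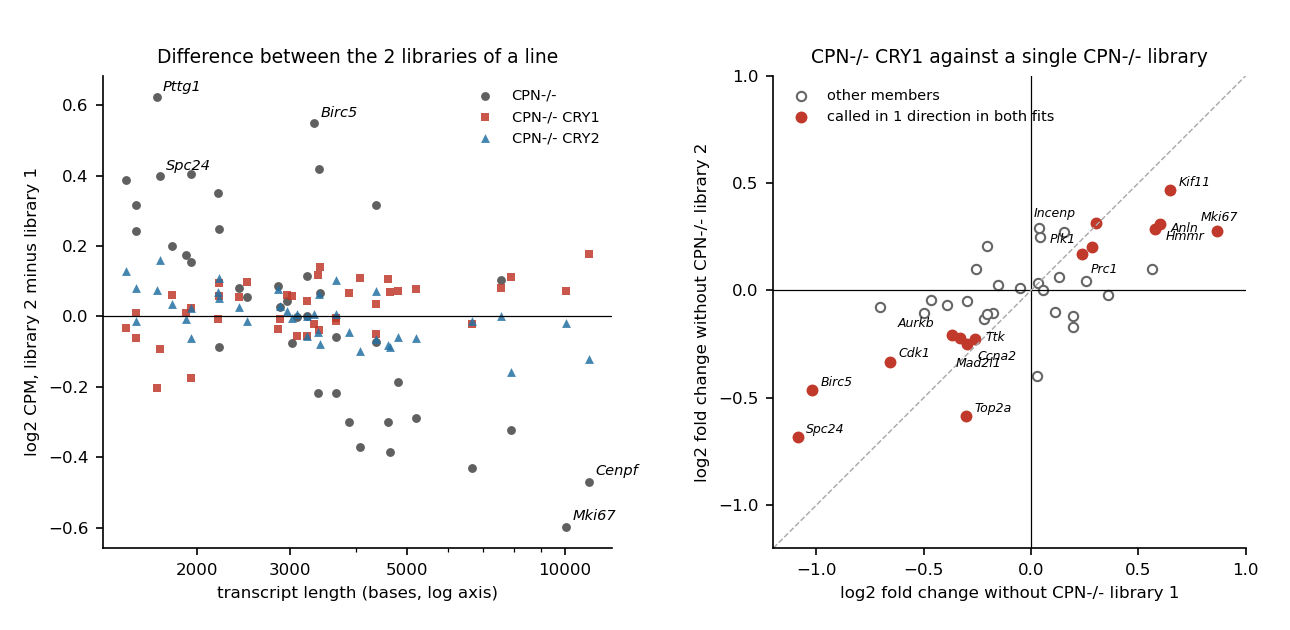
Left, log2 difference in CPM between the 2 libraries of each line (vertical axis) against transcript length in bases (horizontal log axis) for the 40 mitosis genes, which in CPN-/- falls from 0.62 for Pttg1 to -0.60 for Mki67. Right, log2 fold change of CPN-/- CRY1 without CPN-/- library 1 (horizontal) against that without library 2 (vertical). Filled points mark members called in 1 direction in both fits, for which no share of all genes was computed.

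Within complexes, the test called some subunits and not others. Of the 4 subunits of the NDC80 complex, which acts as a heterotetramer, Spc24 fell in CPN-/- CRY1 while Ndc80, Nuf2 and Spc25 had changes of 0.15, -0.18 and -0.18 (edgeR adjusted p between 0.18 and 0.33). Per kilobase, Spc24 stood at 31.2 CPM in CPN-/-, 16.7 with CRY1 and 23.1 with CRY2. Its mean was the lowest of the 4 subunits in both CRY-expressing lines, but with CRY2 Ndc80 lay close to it, at 23.9 CPM. This order depends on the transcript chosen. In the chromosomal passenger complex, Birc5 fell and Incenp rose, while Aurkb had -0.30 and Cdca8, which encodes borealin and is no member of the list, -0.02 (SE 0.13, edgeR adjusted p = 0.91). The difference between subunits was not tested.

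**Figure D5:**
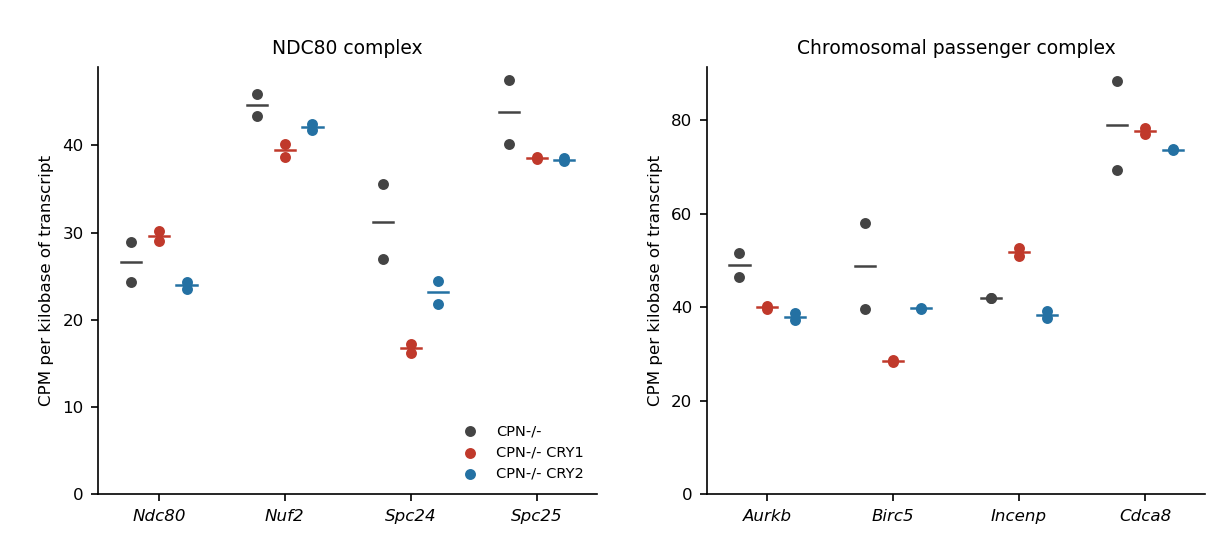
Level per kilobase of transcript (CPM per kilobase, axis from 0) of the 4 subunits of the NDC80 complex (left) and of the chromosomal passenger complex (right), for each library (points) and as the mean of each line (bars). Spc24 and Birc5 are lowest in CPN-/- CRY1, and Incenp is highest there.

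Other lists of cell cycle genes, outside the 40 members, are given by their counts beside the same shares of all tested genes (24.3% called in CPN-/- CRY1, 11.2% higher and 13.1% lower). Of 39 further kinetochore and centromere genes, 9 (23.1%) were called in CPN-/- CRY1, each as lower, with a median of -0.10. When only the 4 libraries of that comparison were fitted 1 was called, beside 12.9% of all tested genes. DESeq2 called 1 as higher and 10 as lower, beside 27.1% of all tested genes called. With the length trend removed 5 were higher and 9 lower, where 40.4% of all tested genes were called. Cenpw, part of a histone-fold pair at the centromere, changed by -0.87 (SE 0.16, edgeR adjusted p = 0.011), Cenpx by -0.78 (SE 0.21, edgeR adjusted p = 0.037) and Pmf1, a subunit of the MIS12 complex, by -0.75 (SE 0.17, edgeR adjusted p = 0.021). The 18 condensin and cohesin genes had 3 higher, the cohesin genes Stag1 (0.77), Stag2 (0.58) and Smc3 (0.35), and 1 lower, Ncaph2 (-0.47) of condensin II. Of 32 further spindle and cytokinesis genes 4 were higher, led by Kif20b (0.78), Psrc1 (0.60) and Cep55 (0.48), and 3 lower, Depdc1b (-0.51), the centriole kinase gene Plk4 (-0.48) and Troap (-0.33). With chromosome medians removed, Cenpx, Pmf1, Smc3 (then 0.03), Ncaph2 (-0.09), Kif20b, Cep55 (0.17), Plk4 and Troap (0.05) were no longer called.

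The anaphase-promoting complex genes had 1 of 17 higher, the inhibitor gene Fbxo5 (0.50), and 1 lower, Anapc11 (-0.69), which encodes its RING subunit. Of the 15 DREAM and MMB regulators 1 was called, Tfdp2, a partner of E2F factors, at 0.76 (SE 0.17, edgeR adjusted p = 0.020), with a median of -0.09 over the list. Among 22 tested mitotic kinase and phosphatase genes 3 were lower, Cks1b (-0.84), Ensa (-0.44) and Pbk (-0.42), where Cks1b encodes a CDK-binding protein and Ensa an inhibitor of the phosphatase PP2A. Both Cks1b and Ensa lie on chromosome 3, whose median was -0.28, and with it removed Cks1b was still called and Ensa was not. Ccna1 and Ccnb3, meiotic cyclins, had 0 counts in all libraries.

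DNA replication genes, which act before mitosis in S phase, had 1 of 34 higher (Mcm4, 0.33, and 0.05 and not called with chromosome medians removed) and 3 lower, Cdc6 (-0.50), Rfc2 (-0.46) and Mcm10 (-0.34), in CPN-/- CRY1. The median of the list was -0.15 with CRY1 and -0.18 with CRY2, and values above 0 were found for 7 and 3 of the 34 genes. In CPN-/- CRY2, 1 gene was called, Rrm2, a subunit of ribonucleotide reductase, at -0.53 (SE 0.11, edgeR adjusted p = 0.033). Over these 7 lists edgeR made 1 other call in CPN-/- CRY2, Mnat1, part of the CDK-activating kinase, at -0.65 (SE 0.14, edgeR adjusted p = 0.040). In that comparison edgeR called 6.66% of all tested genes. DESeq2 called 2 kinetochore genes, 1 cohesin or condensin gene, 1 kinase or phosphatase gene and 2 replication genes there. It called 9.42% of all tested genes in that comparison. The counts over these lists moved with single libraries as those of the members did. Without library 1 of CPN-/- 21 replication genes were lower in either CRY-expressing line, where 4468 and 3994 of all 14257 tested genes were. Without library 2 there were 11 in CPN-/- CRY1 and 6 in CPN-/- CRY2, where 3195 and 1575 of 14418 genes were.

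Between the CRY-expressing lines, 7.72% of all tested genes were called higher in CPN-/- CRY1 and 8.57% lower. Cenpp and Cenpw were lower in CPN-/- CRY1, by -0.75 and -0.73 on the log2 scale. Stag1 (0.52) and Smc3 (0.37) were higher, and the cohesin gene Rad21 (-0.53) and Ncaph2 (-0.44) lower. Cep55 (0.75) and Kif20b (0.52), both on chromosome 19, were higher, and 5 other spindle and cytokinesis genes were lower, led by Iqgap3 (-0.61), Plk4 (-0.53) and Kif18b (-0.43). Cks1b (-0.64) and Ensa (-0.58) were again lower, and Pola2 (0.51), Rrm2 (0.43) and Mcm4 (0.36) higher. With the chromosome medians removed, 1 spindle gene, 1 kinetochore gene and 1 gene of the anaphase-promoting complex were called by edgeR over these 7 lists. The same fit called 10.5% of all tested genes.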

How the data were processed

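PolyA RNA of 6 libraries was sequenced in paired ends on a stranded protocol. Per the labels and the study's methods, the authors aligned the reads to mm10 with STAR and deposited raw counts per gene from featureCounts. The annotation, the strand setting and the treatment of reads with several matches are not given in the sources used here. Counts were fitted with edgeR 4.0.16 (R 4.3.3) over all 6 libraries with line as the only term, TMM scaling, filterByExpr (10 counts, 15 in total) and robust quasi-likelihood dispersion, and p-values were adjusted by Benjamini-Hochberg over 14069 genes. CPM used TMM-scaled library sizes. Standard errors were taken from the fold change and its F statistic. Transcript lengths (longest GENCODE vM21 transcript, coding where there is one) were held for 88.7% of tested genes. Near-identical transcripts were searched with BLAST+ 2.17.0 (95% identity over 150 bases), and motifs with Python 3.11.15. The alternatives were RLE factors, library size only, other filters, DESeq2 1.42.0, a replicate block, 4 libraries only, removal of trends with length or of chromosome medians, and leaving out each library. The scripts were tested on simulated data. Members called in any comparison are given in full, with Cdk1, Ccnb1, Plk1, Foxm1 and Mki67 in any case, and at most 3 called genes per direction from other lists. Aurkb, Cenpe, Ect2, Cenpa, Cenpf and Cdca8 were named after their values were seen. Ndc80, Nuf2, Spc25, Mad2l1, Ttk, Cdc25c, Espl1 and Pttg1 were also singled out beyond that rule, which gives the other members by range and count. The members and the lists were chosen with earlier results of these data known.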

Additional observations from a re-analysis of the deposited data

Results flagged for a closer look

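For 4 mitosis genes the change against CPN-/- differed between the CRY-expressing lines in the direct test of CPN-/- CRY1 against CPN-/- CRY2. The log2 differences were 0.57 for Kif11 and 0.43 for Incenp, higher in CPN-/- CRY1, and -0.46 for Top2a and -0.35 for Ccna2, lower there. In each case both CPN-/- CRY1 libraries lay on 1 side of both CPN-/- CRY2 libraries, as did 73.3% of all tested genes in either direction. Kif11 and Incenp lie on chromosome 19 and Ccna2 on chromosome 3, whose medians were 0.46 and -0.40, and the part of these chromosomes in the differences was not tested beyond the removal of their medians.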

How the results depend on the processing

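With 2 libraries per line, both the counts of called members and their values moved. Of the 40 members, 26 kept 1 sign in every fit of CPN-/- CRY1 against CPN-/-. In CPN-/- CRY2 against CPN-/- 20 did, and between the CRY-expressing lines 26. In CPN-/- CRY1 against CPN-/-, 8 members were called, and 5 with library size only, 5 with at least 10 counts in every library, 2 with only the 4 libraries of the comparison, 17 with the length trend removed and 4 with chromosome medians removed. In CPN-/- CRY2 against CPN-/- there were 0, and 1 with DESeq2 and 7 with the length trend removed. Between the CRY-expressing lines there were 4, and 15 with their 4 libraries only, 10 with the length trend and 0 with chromosome medians removed. The shares of all genes called moved alongside, to 24.2%, 22.5%, 12.9%, 40.4% and 20.03% in the first, 9.42% and 17.8% in the second and 49.7%, 32.3% and 10.5% in the last. DESeq2 called 9 members in the first comparison and 5 in the last, and 27.1% and 18.1% of all genes. Leaving out 1 library gave 0 to 31, 0 to 24 and 0 to 16 calls, the highest without library 1 of CPN-/- (in the last also without library 2). The median log2 fold change in CPN-/- CRY1 was 0.0023 with the length trend removed and -0.064 to -0.012 with 1 library left out. In CPN-/- CRY2 it was -0.021 with chromosome medians removed and -0.060 to 0.024 with 1 library left out, and between these lines -0.014 to 0.0083.

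The labels do not say whether the replicate numbers pair the libraries. Their deviations correlated at -0.13, 0.23 and -0.09 over 14069 genes, which cannot settle it. With the replicate block 7, 0 and 2 members were called in the 3 comparisons, where 24.6%, 6.94% and 15.6% of all tested genes were called.

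Among the named genes only, signs changed as follows, and the cause was not tested. In CPN-/- CRY1 against CPN-/-, values of the other sign were Ccnb1 0.085 and Spc25 0.049 with the length trend removed, and Incenp -0.011 and Troap 0.049 with chromosome medians removed. With 1 library left out, this comparison ran from -0.071 to 0.025 for Ccnb1 and from -0.023 to 0.36 for Foxm1. In CPN-/- CRY2 against CPN-/-, values of the other sign were Ccna2 -0.028, Incenp 0.017 and Kif11 0.13 with chromosome medians removed, and Ccnb1 0.043, Top2a -0.090 and Mki67 -0.00073 with the length trend removed, and Top2a -0.0091 with library size only. With 1 library left out, this comparison ran from -0.30 to 0.028 for Cdk1, from -0.54 to 0.014 for Birc5, from -0.095 to 0.083 for Kif11, from -0.12 to 0.16 for Top2a and from -0.037 to 0.34 for Foxm1. Between the CRY-expressing lines, values of the other sign were Ccna2 0.022, Incenp -0.028, Smc3 -0.092 and Ncaph2 0.0096 with chromosome medians removed. With 1 library left out, this comparison ran from -0.00095 to 0.095 for Ccnb1, from -0.031 to 0.061 for Foxm1 and from -0.0092 to 0.055 for Hmmr. Among 89 named gene results, 968 values under the alternatives kept their direction and side of the threshold, 274 lost and 63 gained the call.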
